A study of Homo sapiens with 20 samples.

Results

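The respiratory chain genes described here are 60 nuclear genes whose products build complexes I to IV. They were chosen by a rule on names. It took every NDUF gene of the A, AB, B, C, S or V series with a number. It also took a list of SDH, UQCR and COX genes. The rule used no measured value, though earlier results of these data were known. The genes fill 64 of the 57773 rows of each count table, because NDUFA7, NDUFB8, SDHD and UQCR11 each have a second Ensembl identifier. The 60 genes comprise 7 core subunits of complex I, 30 accessory subunits of complex I, 4 subunits of complex II, 8 of complex III and 11 of complex IV, with NDUFA4 placed in complex IV. All samples are LNCaP, a human prostate adenocarcinoma cell line, and total RNA was sequenced. In the first experiment, LNCaP cells carried no transgene and were transfected with 20 nM of an siRNA pool against EHMT1 (siEHMT1, n = 2) or of a nontarget pool (siNTC, n = 2) for 2 days. In the second experiment, 4 stable LNCaP lines carried a lentiviral, doxycycline-inducible, V5-tagged EHMT1 that was wild-type (WT), K450R, K451R or K450RK451R, in which the lysine the name gives, or both lysines, are replaced by arginine. Each line was left untreated (Veh) or given 0.25 µg/mL of doxycycline (Dox) for 2 days, and all 4 lines keep their own EHMT1 gene. EHMT1, also called GLP, is an H3K9 methyltransferase. None of these samples is a line without the transgene given Dox, so an effect of doxycycline itself and one of the induced EHMT1 cannot be told apart.

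The respiratory chain of the inner mitochondrial membrane passes electrons to oxygen and pumps protons as it does so. Complex I oxidises NADH and complex II oxidises succinate, both hand electrons to ubiquinone, complex III passes them on to cytochrome c, and complex IV reduces oxygen to water. Complexes I, III and IV are each built from subunits of both the nuclear and the mitochondrial genome, whereas all subunits of complex II are nuclear. Prostate epithelium is known for a truncated citrate cycle, and prostate cancer cells such as LNCaP for relying on oxidative phosphorylation.

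Several of these genes have near-identical copies elsewhere in the genome, and the reads were 51 bases long, so the sequences that limit what was counted are given first. Every 51-base window of each member's main transcript was searched for in GRCh37, the build of the files. At least 1 window matched another place exactly in 28 of the 60 genes, and at least 20% of windows did so in 7. The share was 60.3% for SDHC and 59.3% for COX6A1, the highest of all members, and 30.4% for NDUFV2. For NDUFV2 and COX6A1, 120 bases of 1 coding exon are shown 5′ to 3′ on the strand of the gene beside the copy, with the bases that differ in capitals.
NDUFV2, chr18:9122511-9122630, plus strand: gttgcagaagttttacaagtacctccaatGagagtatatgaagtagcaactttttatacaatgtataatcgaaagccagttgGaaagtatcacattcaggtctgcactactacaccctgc
NDUFV2P1, chr19:53727554-53727673, minus strand: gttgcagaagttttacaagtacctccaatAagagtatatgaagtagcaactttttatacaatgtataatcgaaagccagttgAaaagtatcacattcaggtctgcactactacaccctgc
COX6A1, chr12:120876182-120876301, plus strand: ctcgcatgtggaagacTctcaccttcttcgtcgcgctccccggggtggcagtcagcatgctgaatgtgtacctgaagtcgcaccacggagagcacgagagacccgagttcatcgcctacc
COX6A1P2, chr6:37012739-37012858, plus strand: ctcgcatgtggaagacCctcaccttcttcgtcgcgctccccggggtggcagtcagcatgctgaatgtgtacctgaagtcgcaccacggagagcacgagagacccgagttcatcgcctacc
The exons are exon 5 of NDUFV2 and exon 2 of COX6A1. The stretches differ from the copy at 2 and 1 of their 120 bases. The whole aligned copy was 98.2% identical over 740 bases for NDUFV2 (chr19:53727162-53727901) and 98.7% over 537 bases for COX6A1 (chr6:37012622-37013158).

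The NDUFV2 copy held most of the reads counted on the pair. NDUFV2, a core subunit that carries an iron-sulfur cluster, had 28 and 24 reads with siNTC, 22 and 61 with siEHMT1, and 24 to 51 in the 8 stable-line conditions. Its copy NDUFV2P1, annotated as a pseudogene, had 852 and 418 reads with siNTC, 855 and 1037 with siEHMT1, and 517 to 810 in the stable lines. These are reads before any scaling for depth, and the copy had 14.7 to 38.9 times the reads of the gene. NDUFV2 also shares 89.97% of its transcript with RP11-21J18.1, a counted gene with 0 reads in every sample. The part of the copy and of the shared exons in the level of NDUFV2 was not tested. For COX6A1, a complex IV subunit, the order was the other way, with 354 to 1172 reads on the gene and 236 to 836 on COX6A1P2, 0.568 to 0.790 times those of the gene. For SDHC, a membrane anchor of complex II, the closest copy lies in AC016292.3, and 49 to 155 reads were counted on the gene and 3 to 16 on that gene. In all, 9 genes shared at least 60% of their transcript with another counted gene or had at least 30% of their windows elsewhere. They are NDUFA7, NDUFV2, SDHC, SDHD, NDUFB8, NDUFA11, NDUFA13, COX6A1 and UQCRH. Their median level was 21.7 CPM (counts scaled to a common library size) per kb of transcript, against 95.1 in the other 51, and 24 genes without any shared base or repeated window had a median of 149. The 9 genes ran from 1.41 for NDUFA7 to 247.5 for UQCRH, and the part of transcript length in these medians was not tested. Levels of the 9 genes are uncertain because of their shared bases and repeated windows. Whether counting used strand is not given in the sources used here.

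**Figure D1:**
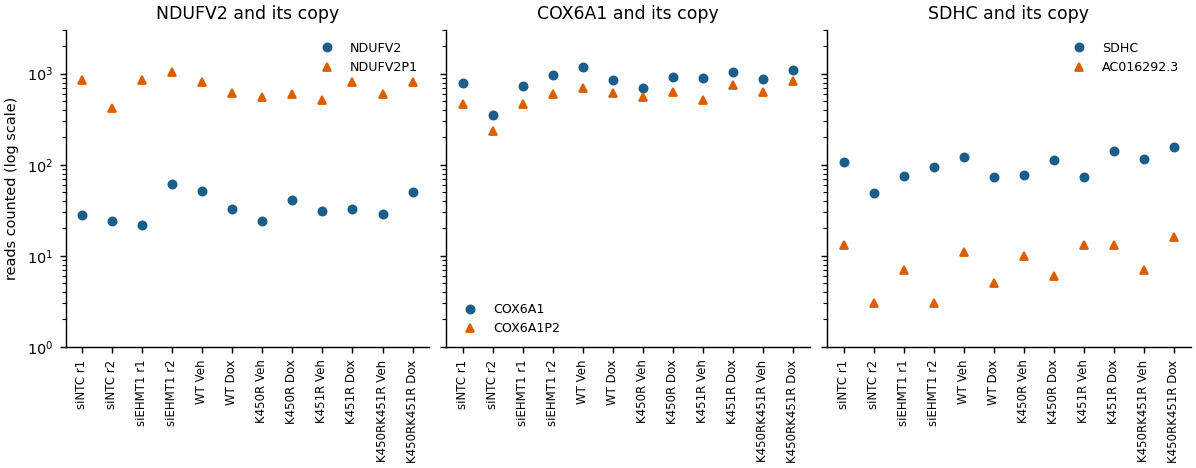
Reads counted on NDUFV2, COX6A1 and SDHC and on their near-identical copies in the 4 siRNA libraries and the 8 stable-line conditions (y axis, reads on a log scale; circles, gene; triangles, copy). NDUFV2 sits between 22 and 61 reads in all 12 columns, under its copy at 418 to 1037, whereas COX6A1 and SDHC sit above theirs.

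Promoter sequences from RefSeq (GRCh38.p14, 250 bases before to 50 after the start) were matched to 51 of the 60 genes. The nuclear respiratory factor NRF1, the ETS factor GABP and YY1 are known regulators of many respiratory chain genes, and their motifs were searched on both strands. The complete NRF1 motif, GCGCA followed directly by TGCGC, was found in 3 of 51 member promoters and in 1.36% of 27305 promoters. TGCGCA, the NRF1 core, which can share bases with the complete motif, was found in 18 members and in 8.42% of all promoters. The ETS motif CCGGAAG was found in 15 members (10.7% of all promoters), and the YY1 motif AAGATGGC in 8 (3.03%). TATAAA was found in 5 members and in 12% of all promoters. The median GC content was 61% in the member promoters and 58.3% in all promoters. The 3 promoters with the complete NRF1 motif and that of COX5B, the member with the smallest unadjusted p with siEHMT1, are shown around their matches, with NRF1 and ETS matches in capitals. They were chosen after the search.
NDUFA8, chr9:122159753-122159860, minus strand: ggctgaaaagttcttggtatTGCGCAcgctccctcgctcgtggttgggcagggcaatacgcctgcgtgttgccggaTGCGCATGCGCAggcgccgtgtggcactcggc
NDUFB4, chr3:120596157-120596207, plus strand: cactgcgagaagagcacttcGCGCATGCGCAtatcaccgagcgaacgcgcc
SDHD, chr11:112086742-112086822, plus strand: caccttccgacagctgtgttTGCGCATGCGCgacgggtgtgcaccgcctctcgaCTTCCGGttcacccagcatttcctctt
COX5B, chr2:97645909-97646083, plus strand: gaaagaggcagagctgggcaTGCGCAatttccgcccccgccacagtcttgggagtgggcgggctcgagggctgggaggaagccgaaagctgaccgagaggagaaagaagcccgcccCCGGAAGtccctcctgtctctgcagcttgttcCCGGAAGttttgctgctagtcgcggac
By the rule fixed for promoters, those of the members whose Dox effect differed most between WT and the mutant lines are also shown, from 180 bases before to 30 after the start. SDHC, which differed most, was not among the matched genes. Neither NDUFB3 nor NDUFV2 held any of the 5 strings, which says only that these letters are not in these windows.
NDUFB3, chr2:201071821-201072030, plus strand: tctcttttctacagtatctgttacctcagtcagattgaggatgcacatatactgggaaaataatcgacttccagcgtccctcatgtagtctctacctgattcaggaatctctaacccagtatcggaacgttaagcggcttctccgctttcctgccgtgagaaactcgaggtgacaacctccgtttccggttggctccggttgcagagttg
NDUFV2, chr18:9102519-9102728, plus strand: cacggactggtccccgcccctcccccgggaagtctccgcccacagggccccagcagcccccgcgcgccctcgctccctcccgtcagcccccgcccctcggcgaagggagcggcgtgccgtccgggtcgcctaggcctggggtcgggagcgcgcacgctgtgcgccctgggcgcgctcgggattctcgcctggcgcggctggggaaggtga
A match is a description of the letters and not of a bound site.

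The total count was 5593400 to 12438006 per siRNA library and 4168199 to 6272708 per stable-line column. The columns numbered 1 and 2 of each stable-line condition differed by no more than counting noise, with chi-square values of 0.995 to 1.02 for each degree of freedom over 12254 to 13326 genes, against 13.4 and 61.6 for the siRNA groups. They were therefore summed and counted as 1 sample, so that each stable-line condition has n = 1 and 8436791 to 12407739 reads. Nothing says whether the siRNA replicates came from separate cultures, so the p-values measure the spread between these libraries, which may be technical. EHMT1 itself was at 83.5 and 78.7 CPM with siNTC and at 27.8 and 29.1 CPM with siEHMT1, and at 73.6 to 91.3 CPM with Veh and 678 to 865 CPM with Dox, as the labels say. All 8 prostate luminal markers, KLK3 included, were at 10 CPM or more, with a summed level of 5313 to 12771 CPM. Of 9 markers of other cell types, 4 had a read and 1 reached 10 CPM, with a summed level of 16.6 to 44.2 CPM. The siRNA libraries held 20.7% to 25.5% of reads on MT-RNR2, the mitochondrial large ribosomal RNA, and the stable lines 7.26% to 13.1%, and the second siNTC library had 10.0% of its reads on 2 pseudogenes that resemble ribosomal RNA.

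The levels of the respiratory chain genes spanned a wide range per length of transcript but little range across the conditions. The members took 0.539% to 0.661% of the reads in the siRNA libraries and 0.632% to 0.694% in the stable lines. Levels below are CPM scaled by the trimmed mean of M values (TMM), with genes compared per kb of transcript. Complex IV held the highest level. COX8A, a small subunit of its membrane part, was at 720 CPM per kb over the 10 conditions, followed by COX7C at 407 and COX4I1 at 396, and COX7B was the lowest of this complex at 47.9. In complex I, NDUFB4 was the highest accessory member at 361 CPM per kb, and NDUFV1, which binds NADH and FMN, was the highest core member at 195. The lowest core member was NDUFV2 at 4.23, and the lowest accessory member was NDUFA7 at 1.41. In complex III, UQCRH was the highest at 247.5 CPM per kb, and UQCRB was the lowest at 17.7. UQCRH is the hinge protein that links the cytochromes on either side of it. The order per kb depends on the transcript taken for length. That of UQCRB has 8459 bases, 333 of them coding, and that of COX7B has 2444, 240 of them coding. Before division by length, UQCRB averaged 150 CPM against 133 for UQCRH. COX7B averaged 117 CPM against 90.8 for COX6A1. In complex II, SDHB, the iron-sulfur subunit, was at 77.7 CPM per kb, SDHA, the flavoprotein that oxidises succinate, at 46.1, and the anchors SDHD and SDHC were at 17.4 and 7.92.

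**Figure D2:**
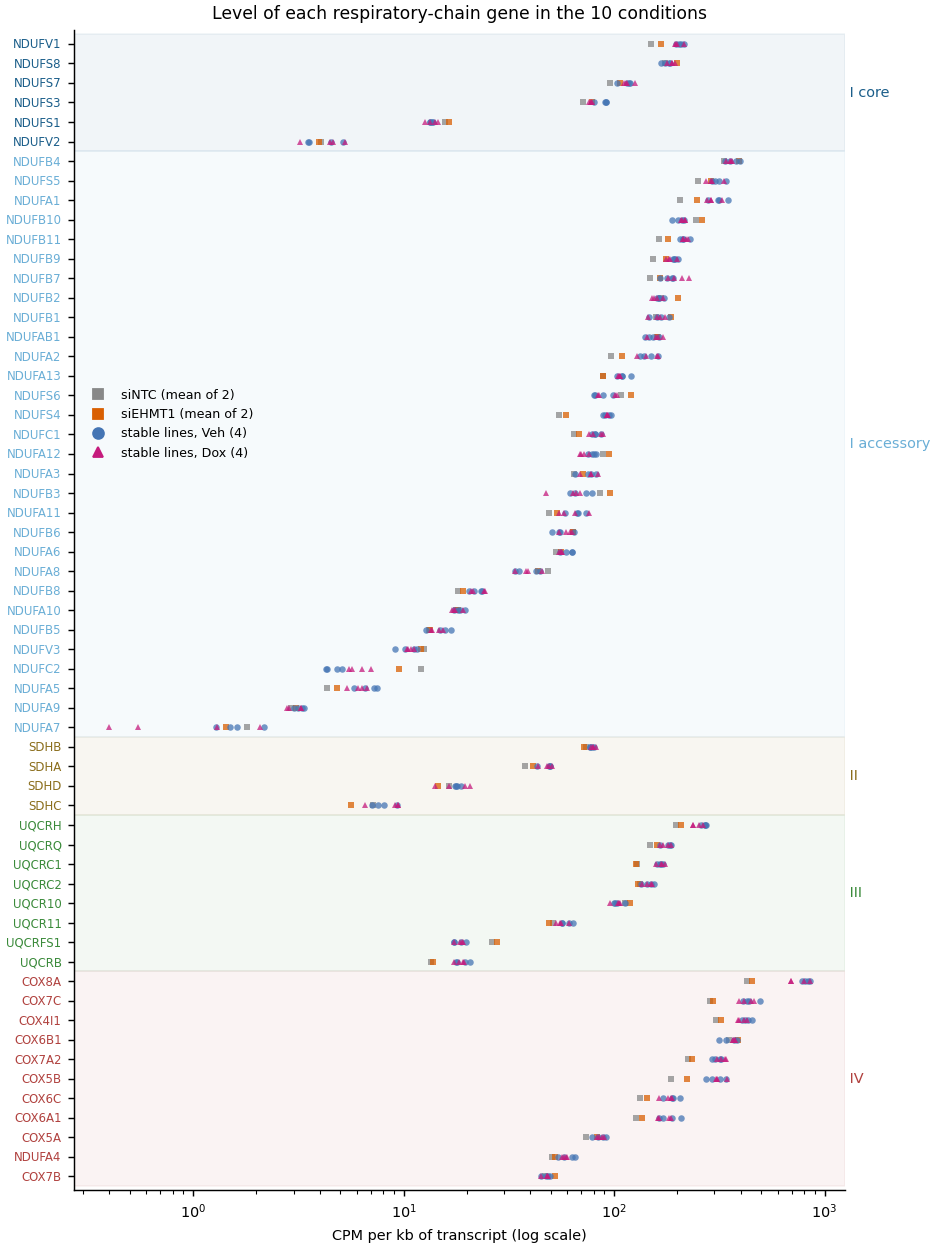
Level of 59 of the 60 genes in CPM per kb of transcript (x axis, log scale), grouped by complex, with the mean of 2 libraries for siNTC and siEHMT1 and 1 point per line for Veh and Dox. For most genes the 10 points lie close together, COX8A is the highest at a mean of 720, NDUFA7 is the lowest accessory gene of complex I at 1.41, and NDUFV2 is the lowest core gene at 4.23.

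The spread over the 10 conditions was set beside that of all genes with a mean of at least 20 CPM, which were not matched to the members in level. Among the 55 members with a mean of at least 20 CPM, the median standard deviation of log2 CPM over the 10 conditions was 0.13, and the median ratio of highest to lowest condition was 1.37. The same values over all 7081 genes, members included, were 0.23 and 1.63. By complex, the median standard deviation was 0.11 for the complex I core, 0.13 for the accessory subunits, 0.14 for complexes II and III and 0.20 for complex IV. No test was made of this difference.

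The siRNA and stable-line experiments were also set side by side. With siNTC, the members had a median log2 difference of −0.22 from the mean of the 4 uninduced lines, and 13 of 55 were higher. Over all 7081 genes the median was −0.09, and 44.6% were higher. COX8A was at 217 and 207 CPM with siNTC and at 422, 413.5, 400.2 and 388 CPM in the uninduced WT, K450R, K451R and K450RK451R lines, a log2 difference of −0.94. COX5B was at 125 and 131 CPM against 188 to 236, and COX7C at 173 and 188 against 258 to 311. NDUFS4, an accessory subunit of the NADH-oxidising arm, was at 36.9 and 36.7 CPM against 59.2 to 65.0. UQCRFS1, the Rieske iron-sulfur protein of complex III, had the opposite order, at 87.0 and 75.003 CPM against 53.5 to 60.9. These 5 genes, named after their values were seen, had no overlap between the 4 siRNA libraries and the 8 stable-line conditions. In all, 20 of 55 members were below in every siRNA library (36.2% of all genes) and 6 were above (26.3%), so the share below was near that of all genes. The 2 experiments were counted in separate tables and differ in their MT-RNR2 share, and experiment and condition cannot be told apart here. A lower level of a gene in bulk RNA can come from fewer cells expressing it or less of its RNA per cell. These cannot be told apart either.

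**Figure D3:**
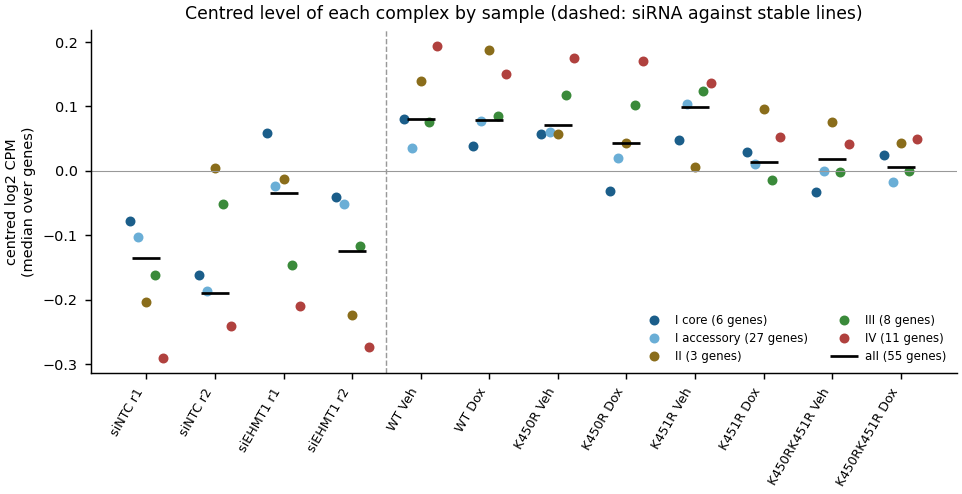
Centred log2 CPM of each complex (y axis, median over its genes with at least 20 CPM, relative to each gene's own mean) in the 4 siRNA libraries and the 8 stable-line conditions, with a black bar for all 55 genes. Complex IV is at −0.29 to −0.21 in the siRNA libraries and at 0.04 to 0.19 in the stable lines.

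Among the uninduced lines the levels were close together. The median ratio between the highest and lowest of the 4 lines was 1.15 for the 55 members and 1.19 for all 7081 genes. None of the 55 members was past 1.5-fold, and 3.98% of all genes were. The widest ratio was 1.32 for NDUFB5, an accessory subunit, which was at 65.8, 62.4, 70.7 and 53.4 CPM in WT, K450R, K451R and K450RK451R. With 1 sample per line, this is a description.

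With EHMT1 silenced, no respiratory chain gene passed the test. Of 14532 genes tested, 18 were called at an adjusted p under 0.05 (0.124%), and none of the 60 members that passed the filter on low counts was among them (edgeR quasi-likelihood test). At an unadjusted p under 0.05, 5 of 60 members and 9.14% of all genes passed. DESeq2 and limma-voom called no member either, with 4 and 6 members at an unadjusted p under 0.05. The 95% interval of the fold lay within 1.5-fold in either direction for 56 of 60 members and 8711 of 14532 genes. At a mean of at least 20 CPM it did so for 55 of 55 members and 6639 of 7081 genes. The fitted values were small and mostly positive: 48 of 60 members were above 0, against 49.5% of all genes, with a median log2 fold change of 0.09 for the members and −0.0022 for all genes. In 26 of 60 members both siEHMT1 libraries were above both siNTC libraries (20.2% of all genes), and in 3 both were below (19.2%).

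In complex I, NDUFB2 was at 82.8 and 71.8 CPM with siNTC and at 101 and 87.0 CPM with siEHMT1, a log2 fold change of 0.27 ± 0.10 (SE; edgeR adjusted p = 0.443). NDUFA1 was at 91.0 and 81.5 CPM and then at 110.3 and 98.7 CPM, a log2 fold change of 0.26 (adjusted p = 0.398, edgeR). NDUFB4 was at 231 and 203 CPM and then at 263 and 247 CPM, a log2 fold change of 0.22. These 3 accessory subunits of the membrane arm had both siEHMT1 libraries above both controls, and none passed the test. Lower values were seen for NDUFA8 (log2 fold change −0.20), NDUFC2 (−0.28) and NDUFA7 (−0.40, on 4 to 15 reads a library). NDUFC2, an accessory membrane subunit, was at 18.2 and 34.1 CPM with siNTC and at 20.4 and 20.8 CPM with siEHMT1. Its direction rests on the second siNTC library: without the first siNTC library the log2 fold change was −0.73 (adjusted p = 0.0275, edgeR), and without the second it was 0.18. In the core, NDUFS8 (0.18), NDUFS7 (0.15) and NDUFV1 (0.14) had the largest positive log2 fold changes. NDUFS8 and NDUFS7 carry iron-sulfur clusters on the path to ubiquinone. None of these 3 passed the test.

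Complex II had a negative median, −0.09, with 1 of 4 members above 0. The values of SDHA (−0.019 to 0.22), SDHB (−0.15 to 0.057) and SDHD (−0.44 to 0.11) each crossed 0 when 1 library was left out. SDHC was at 9.70 and 9.12 CPM with siNTC and at 7.54 and 7.11 CPM with siEHMT1, a log2 fold change of −0.37 ± 0.21 (SE; edgeR adjusted p = 0.615). It was the only complex II member with no overlap between the groups. SDHD was at 18.0 and 26.1 CPM and then at 19.6 and 19.3 CPM (log2 fold change −0.14). SDHB had a log2 fold change of −0.05 and SDHA of 0.10, and both had overlapping groups. In complex III, 5 of 8 members were above 0 with a median of 0.05. The values ran from −0.05 for UQCR11 to 0.10 for UQCRQ, with UQCRC2 at −0.04, UQCRC1 at −0.03, UQCRFS1 at 0.07 and UQCRH at 0.09. UQCRC1, a core protein of the matrix side, was at 206.3 and 205.7 CPM with siNTC and at 202.8 and 201.8 CPM with siEHMT1. The groups did not overlap, though they lay close together. In complex IV, all 11 members were above 0, with a median of 0.09. COX5B, a zinc-binding subunit on the matrix side, was at 125 and 131 CPM with siNTC and at 157 and 149 CPM with siEHMT1, a log2 fold change of 0.25 ± 0.09 (SE; edgeR adjusted p = 0.368). COX7B and COX5A followed at 0.16 and 0.15, and the smallest value was 0.04. COX5B had the smallest unadjusted p of all members and ranked 466 of 14532 genes by it.

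**Figure D4:**
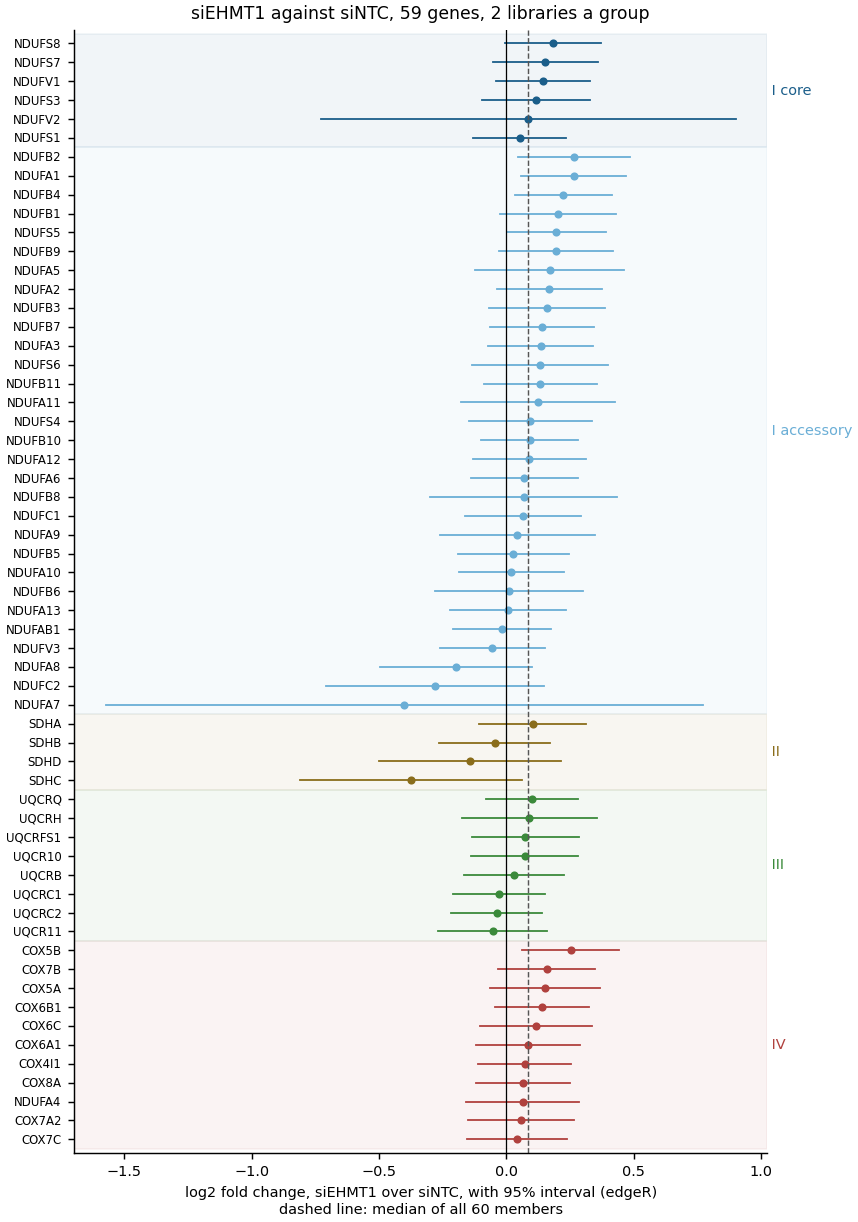
Log2 fold change of siEHMT1 over siNTC for 59 of the 60 members (x axis), grouped by complex, with 95% intervals from edgeR and 2 libraries per group. Most points lie right of 0, the dashed median is 0.09, all 11 complex IV genes are above 0, and no member passed an adjusted p of 0.05.

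Other gene lists also had positive medians with siEHMT1. The 78 genes of cytoplasmic ribosomal proteins had a median log2 fold change of 0.11 with 67 above 0, and the 16 nuclear ATP synthase genes a median of 0.07 with 13 above 0. Across 55 members the log2 fold change went down with transcript length (Spearman −0.43, with the libraries shared by all points). The 26 transcripts under 700 bases had a median of 0.13 and the 29 longer ones of 0.07. Libraries also differed in the share of reads on ribosomal RNA, given above. The part of transcript length and of that share in these values was not tested.

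Doxycycline did not move any respiratory chain gene past the test over the 4 lines. Of 14105 genes tested with the line as a block, 286 were called (2.03%), and none of the 59 members that passed the filter was among them (edgeR). At an unadjusted p under 0.05, 4 of 59 members and 14.2% of all genes passed, and DESeq2 and limma-voom called none, with 3 and 4 members at that level. The median log2 fold change of the members was −0.01, with 27 of 59 above 0 (51.2% of all genes). The interval lay within 1.5-fold for 57 of 59 members and 9961 of 14105 genes. Only 2 members, COX7A2 and NDUFC2, were higher with Dox in all 4 lines (10.7% of all genes), and 6 were lower in all 4 (10.1%), among them NDUFS3, UQCRH, COX8A, COX6C and COX4I1.

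NDUFS3, a core subunit of the ubiquinone-facing arm of complex I, had the largest negative value. It was at 82.3, 81.4, 82.1 and 71.8 CPM with Veh and at 70.2, 69.6, 67.9 and 69.5 CPM with Dox in WT, K450R, K451R and K450RK451R, so the groups did not overlap. On the log2 scale this is −0.19 ± 0.07 (SE; edgeR adjusted p = 0.152). NDUFC2 had the largest positive value, at 9.28, 11.01, 9.36 and 10.5 CPM with Veh and at 11.9, 15.1, 13.8 and 12.4 CPM with Dox, a log2 fold change of 0.40 ± 0.14 (SE; edgeR adjusted p = 0.162). All 4 Dox values were above all 4 Veh values. NDUFC2 shares 22.3% of its transcript with other counted genes, among them NDUFC2-KCTD14, which had 0 reads. NDUFB7, an accessory subunit facing the intermembrane space, was at 101, 102, 88.3 and 95.4 CPM with Veh and at 121, 96.8, 103 and 113 CPM with Dox, with overlap through the K450R line (log2 fold change 0.17, adjusted p = 0.192, edgeR). The other accessory members named by the rule lay between −0.18 for NDUFB3 and 0.10 for NDUFS6, with NDUFA5 at −0.15 and NDUFA12 at −0.14. In the core, NDUFV1 was at −0.03, NDUFS7 at 0.04, NDUFV2 at 0.06 and NDUFS8 at 0.08.

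In complex IV, COX8A was at 422, 413.5, 400.2 and 388 CPM with Veh and at 419, 393, 341 and 343 CPM with Dox, a log2 fold change of −0.12 ± 0.06 (SE; edgeR adjusted p = 0.314). Its WT pair was almost equal, and the Dox and Veh ranges overlapped. The other complex IV values ran from −0.08 for COX4I1 to 0.09 for COX7A2, with COX6B1 at 0.08, COX5B at 0.05 and COX6A1 at −0.075. In complex III, UQCRH was at −0.11 (adjusted p = 0.363, edgeR), UQCR11 at −0.08, UQCRB at −0.03, UQCRC2 at 0.0006, UQCRC1 at 0.0093 and UQCRFS1 at 0.02. In complex II, the values were also small, with SDHC at 0.10, SDHB at 0.02, SDHA at 0.0035 and SDHD at −0.04. SDHB was at 77.6 to 81.9 CPM with Veh and at 78.7 to 83.6 CPM with Dox. These ranges overlap.

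The lines were then compared, since the study asks whether EHMT1 with either or both lysines replaced acts unlike WT. The paper reports increased proliferation with both lysines replaced and not with a single one. The mean over the 3 mutant lines does not isolate K450RK451R, whose difference from WT was not tested on its own. The Dox effect in WT minus the mean Dox effect of the 3 mutant lines was called for 20 of 14105 genes (0.142%) and for none of the 59 members (edgeR). No member had an unadjusted p under 0.05, against 6.99% of all genes, and DESeq2 and limma-voom gave 0 and 0 members at that level and called none. WT has 1 sample per treatment and is assumed to vary like the mutant lines. At a mean of at least 20 CPM, the interval of the difference lay within 1.5-fold for 49 of 55 members and 4680 of 7081 genes. The WT ratio was above all 3 mutant ratios in 19 members (26.4% of all genes) and below all 3 in 7 (26.8%), with a median difference of 0.04.

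Within a line there is 1 sample per treatment, so the ratios have counting intervals only and no test. The median log2 ratio of Dox over Veh was 0.00045 in WT, −0.02 in K450R and 0.0023 in K450RK451R. In K451R it was −0.06 with 39 of 59 members below 0 (49.9% of all genes). This median turned to 0.07 with CPM of the total in place of TMM, a scaling that shifted every gene of that line by 0.13. No member was past 1.5-fold in any line, against 11.3%, 13%, 11.6% and 13.9% of all genes in WT, K450R, K451R and K450RK451R. These shares are not matched in level: 55 of the 59 members but 7081 of the 14105 genes had a mean of at least 20 CPM. At that level, the interval of the Dox effect over the 4 lines lay within 1.5-fold for 55 of 55 members and 6950 of 7081 genes. By complex, the largest median was 0.14 for complex II in K450R and the lowest −0.10 for complex IV in K451R.

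SDHC had the largest difference between WT and the mutant lines. Its Veh level was 10.6 CPM and its Dox level 8.57 CPM in the WT line. In the mutant lines, in the order K450R, K451R and K450RK451R, the Veh levels were 9.87, 9.23 and 12.2 CPM and the Dox levels 12.3, 11.9 and 12.3 CPM. Its ratio was thus below 0 in WT alone, with a log2 difference of −0.52 ± 0.35 (SE; edgeR adjusted p = 0.820), and the interval ran from −1.23 to 0.19. NDUFB3 had the opposite pattern, with a log2 ratio of 0.10 in WT and of −0.09, −0.29 and −0.45 in K450R, K451R and K450RK451R (difference 0.37). NDUFV2, at 24 to 51 reads, had ratios of −0.21 in WT, 0.56 in K450R, −0.49 in K451R and 0.40 in K450RK451R, whose counting intervals all include 0. NDUFA11, an accessory subunit that shares 68.2% of its transcript with other counted genes, was at 38.8 and 31.6 CPM in WT and at 33.6 and 43.7 CPM in K450RK451R, the only line where it was higher with Dox. Among the other accessory members, NDUFB8 differed by −0.28, NDUFS6 by −0.21, NDUFA2 by 0.24 and NDUFV3 by 0.30. In the other complexes the differences were −0.20 (COX7B), −0.17 (UQCR11), −0.06 (SDHB), 0.05 (SDHA), 0.06 (NDUFS8), 0.14 (SDHD), 0.15 (COX8A) and 0.16 (UQCRB). The intervals of these differences between WT and the mutant lines all include 0. Within lines, the counting intervals excluded 0 for NDUFB3 in K451R and K450RK451R and for NDUFA11 in WT and K450RK451R. Those of SDHC included 0 in every line.

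**Figure D5:**
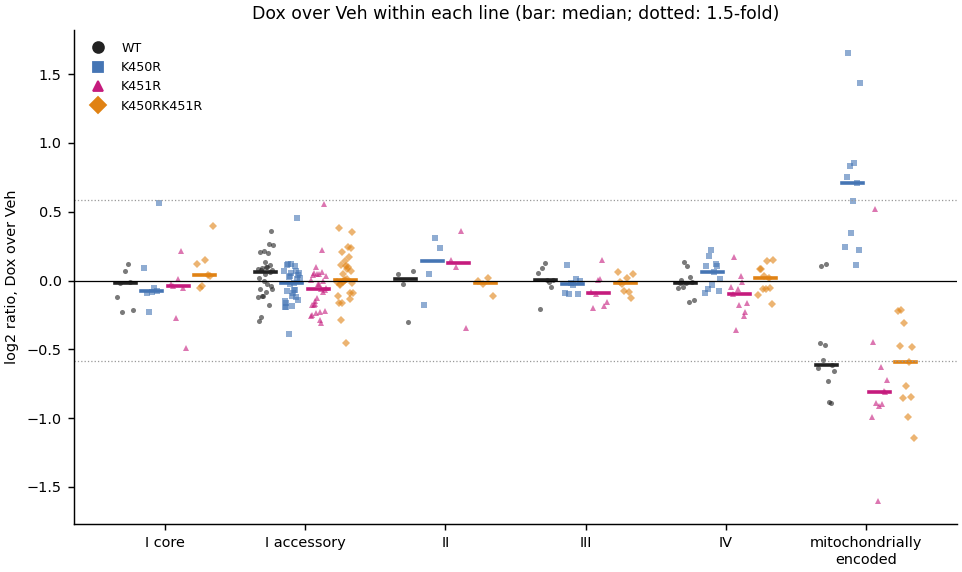
Log2 ratio of Dox over Veh (y axis) for each gene in each of the 4 lines, grouped by complex, with the mitochondrially encoded subunits at the right; bars are medians and dotted lines mark 1.5-fold. The 59 nuclear genes lie within 1.5-fold in every line, whereas the medians of the 11 mitochondrially encoded genes are −0.61, 0.71, −0.81 and −0.59 in WT, K450R, K451R and K450RK451R.

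The genes that surround the respiratory chain were set beside it as lists. The subunits encoded by the mitochondrial genome had a median of −0.39 with Dox over the 4 lines, with 10 of 11 tested below 0 and 2 called: MT-CO1 (log2 fold change −0.57, adjusted p = 0.000974, edgeR) and MT-CO3 (−0.42, adjusted p = 0.0121, edgeR), both core subunits of complex IV. All 11 were above 0 in K450R and 9, 10 and 11 were below 0 in WT, K451R and K450RK451R. The 11 tested include MT-ATP6, a subunit of the ATP synthase and not of complexes I to IV. The nuclear members and these mitochondrial genes thus had different ranges in each line. The share of reads on MT-RNR2 rose from 10.7% with Veh to 12.5% with Dox in K450R. It fell from 11.6% to 8.77% in WT, from 13.1% to 9.51% in K451R and from 10.9% to 7.26% in K450RK451R. The part of that share in the ratios of the mitochondrial genes was not tested. With siEHMT1, the 13 mitochondrial genes had a median of 0.03 and none was called, with MT-CO3 at 0.42 and MT-ATP8 at −0.35 as the extremes.

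Among the other lists, none of the 13 complex I assembly factors, 23 assembly factors of complexes II to IV, 16 nuclear ATP synthase genes, 13 citrate cycle enzymes and 2 cytochrome c and CYC1 genes that were tested was called in any of the 3 comparisons. Their medians with Dox were 0.03, 0.0033, 0.0028, 0.02 and −0.05. With siEHMT1 they were 0.16, 0.05, 0.07, −0.0087 and 0.09. With Dox the largest values were 0.38 for SCO1, a copper chaperone of complex IV (adjusted p = 0.0603, edgeR), and 0.28 for NDUFAF6. With siEHMT1 they were 0.32 for SDHAF2, 0.26 for ECSIT and 0.26 for ATP5O upwards and −0.29 for SUCLA2, −0.27 for COX20 and −0.23 for NDUFAF6 downwards. Mitochondrial ribosomal protein genes had medians of 0.04 with siEHMT1 (71 tested) and 0.01 with Dox (70 tested), with none called. Among 9 tested regulators of respiratory genes, PPRC1, a coactivator of the PGC-1 family, rose with Dox (log2 fold change 0.78, adjusted p = 0.00396, edgeR). PPARGC1B, of the same family, had a larger value without passing the test (1.04, adjusted p = 0.0817, edgeR), and GABPA was the lowest at −0.22. With siEHMT1 none of 10 was called, with PPARGC1A at 0.95 on 4 to 38 reads and PPARGC1B at −0.30. Cytoplasmic ribosomal protein genes had a median of −0.07 with Dox, with 63 of 78 below 0 (6887 of all 14105 genes). Called lower were 3 of 78, beside 2.03% of all genes called in either direction. These 3 fell by 0.23 (RPSA), 0.52 (RPS3A) and 0.43 (RPL39) on the log2 scale, and RPS16 fell by 0.55 with siEHMT1. These genes have many processed pseudogenes.

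NDUFA4L2, a relative of NDUFA4 that is known to be induced in hypoxia, separated the experiments more than any member did. It was at 72.8 and 100.3 CPM with siNTC, 68.6 and 75.4 CPM with siEHMT1, 975 to 1336 CPM with Veh and 989 to 1453 CPM with Dox. NDUFA4 itself was at 94.2 and 111 CPM, 99.3 and 114 CPM, 110 to 133 CPM and 115 to 122 CPM in the same groups. NDUFA4L2 did not pass the test in any comparison, with log2 fold changes of −0.25 for siEHMT1, −0.02 for Dox and 0.32 for WT against the mutants. Among the other listed tissue-restricted or alternative isoforms, COX4I2, COX6A2, COX7A1 and UQCRHL had no read. COX6B2 had 1 read, in WT with Dox, and COX8C had 1, in K450RK451R with Dox. COX7B2 had 23 to 56 reads in the siRNA libraries and 3 to 21 in the stable-line conditions. COX7A2L, an assembly factor of supercomplexes, was at 55.6 to 89.0 CPM.

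The genes whose pattern over the 10 conditions was most like the mean centred profile of the 55 members, among 7026 other genes of at least 20 CPM, included SERF2 (Pearson r 0.98), HDAC6 (0.97), HMGB2 (0.97) and RHOB (0.97). The profile itself ran from −0.16 with siNTC and −0.07 with siEHMT1 to 0.08 in K451R with Veh. Both siRNA conditions stood at the low end of it, and the likeness is a description over 10 points that share libraries and depth.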

How the data were processed

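Total RNA of LNCaP cells was sequenced from stranded libraries as single-end reads of 51 bases. Per the submitters' processing notes, the authors used FastQC 0.11.9, STAR 2.7.2 and featureCounts 1.6.4 with hg19 (GRCh37), and deposited raw counts per gene in 2 tables, 1 for each experiment. The study's methods name limma for quantification. Whether counting used strand, and how reads over several genes were treated, is not given in the sources used here.

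Groups were taken from the labels of the 20 samples. The 2 columns of each stable-line condition agreed within counting noise and were summed. Counts were scaled by TMM and tested with edgeR 4.0.16 quasi-likelihood fits in R 4.3.3 (filterByExpr, Benjamini-Hochberg adjustment over all genes tested, adjusted p under 0.05). The fits were siEHMT1 against siNTC, Dox against Veh with the line as a block, and the Dox effect of WT against the mean of the 3 mutant lines. The lines pair the Dox and Veh samples by design, and the deviations of the pairs had correlations of 0.089 to 0.43. Ratios within a line have exact 95% intervals that cover counting error only. Levels are TMM-scaled CPM, with 0.5 added before log2 for spreads. DESeq2 1.42.0, limma-voom (limma 3.58.1), other scalings and filters, and leaving out each library or line were alternatives. Each fit was run on simulated data with known changes. Those changes were larger than the fitted changes of the members, so changes as small as theirs were not tried. Repeated windows were found with BLAST+ 2.17.0+ and gene models were GENCODE release 44 on GRCh37.

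The members and lists were chosen with earlier results of these data known. Named members were, in each comparison and complex, up to 3 with the largest value in each direction, all complex II members and the highest and lowest level per kb. COX7C, NDUFS4, NDUFB5 and a few others were named after their values were seen. A few items are not reported here.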

Additional observations from a re-analysis of the deposited data

Results flagged for a closer look

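NDUFB7 in the K450R line stood apart from the other 3 lines. Its log2 ratio of Dox over Veh was −0.069 in K450R, against 0.26 in WT, 0.22 in K451R and 0.24 in K450RK451R. The gap to the nearest line, divided by the range of the 4 ratios, was above Dixon's 95% critical value for 4 values. Of 28 named members examined in this way 1 was past it, and chance alone gives about 1 in 20. Each line has 1 sample per treatment.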

How the results depend on the processing

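No member was called under any alternative except NDUFC2 without siNTC replicate 1, so that leaving out 1 siRNA library gave 0 to 1 member called. Called genes with siEHMT1 (18) numbered 109 without a filter on low counts and 99 with the replicate number as a block, whose deviations had a correlation of −0.050 and which therefore does not pair the libraries. They numbered 42 to 237 without 1 library. Called genes with Dox (286) numbered 140 with DESeq2, 4 without the line term and 97 (without K451R) to 472 (without WT) without 1 line. For WT against the mutants (20) the counts were 43 with limma-voom, 47 without a filter and 32 to 105 without 1 mutant line. The cause was not tested.

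With CPM of the total, the member medians within a line were 0.037 in WT, 0.071 in K451R and 0.14 in K450RK451R. Of the values for named members under an alternative, 633 kept direction and side of the threshold, 28 changed sign and NDUFC2 passed the threshold once.

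With siEHMT1, leaving out 1 library gave ranges that cross 0 of −0.92 to 0.17 (NDUFA7), −0.73 to 0.18 (NDUFC2), −0.019 to 0.22 (SDHA), −0.15 to 0.057 (SDHB), −0.44 to 0.11 (SDHD), −0.14 to 0.017 (UQCR11), −0.013 to 0.19 (UQCRFS1) and −0.18 to 0.37 (UQCRH). With Dox, leaving out 1 line gave −0.16 to 0.022 (COX6A1), −0.0031 to 0.076 (NDUFS7), −0.093 to 0.23 (NDUFV2), −0.045 to 0.062 (SDHA), −0.13 to 0.059 (SDHD), −0.031 to 0.036 (UQCRC1), −0.0085 to 0.012 (UQCRC2) and −0.028 to 0.049 (UQCRFS1). For WT against the mutants it gave −0.0034 to 0.13 (NDUFS8) and −0.026 to 0.13 (SDHA). The Dox value of UQCRC2 was −0.0024 with DESeq2 and −0.0014 with column 1 only, where SDHA was −0.045. With column 2 only, SDHD was 0.018, SDHC −0.023 and UQCRFS1 −0.043.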
